A study of Homo sapiens with 18 samples.

Results

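The comparison set an A375 melanoma line made with a second guide RNA against TADA2B beside a line made with a first guide, both overexpressing SOX10, and asked whether the differences between the knockout lines persisted once SOX10 was supplied. Its members were the 3 libraries titled A375_TADA2Bsg2_SOX10OE and the 3 titled A375_TADA2Bsg1_SOX10OE, 6 of the 18 libraries of the series. A375 is an established human melanoma cell line. Per the labels, both groups were a TADA2B knockout plus SOX10 overexpression and differed in the guide. The same 2 knockout lines without SOX10, 3 libraries each, gave the reference contrast, and A375 cells titled GFPsg, whose genotype the labels give as WT, with and without SOX10, made up the rest. The titles' sg1 and sg2 are written here as guide 1 and guide 2. Each knockout is known here by 1 line per guide, and the labels do not say whether a line is a clone or a pool, so an effect of the guide and an effect of the line cannot be told apart. Nor do the labels say that the libraries of a group came from separate cultures, so the spread behind each p-value is that of these libraries and may be technical.

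TADA2B is an adaptor subunit of the SAGA complex, a coactivator whose acetyltransferase module places acetyl groups on histone H3 at promoters and whose deubiquitinase module removes ubiquitin from histone H2B. SOX10 is a transcription factor of the neural crest that maintains the glial and melanocyte lineages and is a dependency of many melanomas. Melanoma cells that lose SOX10 are known to shift from a neural crest or melanocytic state towards a more mesenchymal one with active YAP and TEAD, while MITF governs pigment genes. Constitutive MHC class II, driven by the coactivator CIITA, is a known feature of a subset of melanomas.

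Total counts ran from 72897452 to 75240300 in the guide 1 libraries with SOX10 and from 58573910 to 78635492 in the guide 2 libraries with SOX10, where replicate 3 was the shallowest of the 18. Levels are CPM, the gene's counts scaled to the effective library size, and a count of 3 was worth 0.0359 to 0.0493 CPM, a floor that covers counting error only. Over the 12 knockout libraries the first principal component of log CPM held 67% of the variance and separated libraries with SOX10 from those without. The second held 5.97% and separated the lines: all guide 1 libraries lay between 12.9 and 19.1 and all guide 2 libraries between −28.1 and −8, with and without SOX10. Guide 2 replicate 2 without SOX10 stood apart from the others of its group, with a chi-square per degree of freedom of 11.8 and 10.4 against them and 4.6 between them. With SOX10, guide 2 replicate 1 had 7.53 and 8.5 against the others of its group and 4.75 between them. The guide 1 libraries with SOX10 had 4.68 to 7.58 between each other. On the second component the guide 2 libraries with SOX10 lay at −10.4, −20.7 and −28.1. Mitochondrially encoded transcripts took 0.986% to 1.27% of the counts with guide 1 and 1.11% to 1.46% with guide 2, both with SOX10. Of 13 such transcripts 0 were called between the lines by edgeR, 3 had an unadjusted p under 0.05 and DESeq2 called 1, MT-ND3. Of the melanoma markers, MCAM (334 CPM with guide 1 and 316 CPM with guide 2, both with SOX10) and PRAME (142 and 136 CPM) were high, whereas the pigment cell genes PMEL (1.38 and 1.55 CPM) and MLANA (0.918 and 0.836 CPM) were low and TYR was under the floor.

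The TADA2B transcript did not separate the lines with SOX10, and its change from the lines without SOX10 was not called. TADA2B (ENSG00000173011; hg38 chromosome 4, 7041899 to 7057952) stood at 23.9, 26.8 and 25.3 CPM in the guide 1 libraries with SOX10 and at 27.5, 25.7 and 27.6 CPM in the guide 2 libraries with SOX10. The groups overlapped, and the log2 difference of 0.09 (SE 0.0472) was not called (adjusted p = 0.266). Without SOX10 guide 2 was higher by 0.14 on the log2 scale (edgeR, adjusted p = 0.0438), at 28.8 ± 1.37 against 26.0 ± 0.402 CPM (SD, n = 3), a call lost in 6 of 19 alternatives, with an adjusted p of up to 0.268. The change of the difference with SOX10 was −0.06 (SE 0.0665, interaction in edgeR, adjusted p = 0.787). Control cells with SOX10 held 31.0 ± 0.581 CPM. A guide changes the coding sequence and need not lower the transcript, so protein loss was not measured by these counts.

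SOX10 itself remained lower in the guide 2 line, by a smaller log2 difference than without overexpression, though the gap in CPM was not smaller. SOX10 (ENSG00000100146; chromosome 22, 37970686 to 37987422) stood at 281, 286 and 307 CPM in the guide 1 libraries with SOX10 and at 248, 251 and 240 CPM in the guide 2 libraries with SOX10. All guide 2 libraries lay below all guide 1 libraries, and the log2 difference was −0.24 (SE 0.0367, adjusted p = 1.11e-05). Without overexpression the guide 1 line held 83.6 ± 3.02 CPM and the guide 2 line 43.4 ± 3.16 CPM (SD, n = 3), a log2 difference of −0.94 (SE 0.0401). The difference therefore moved up by 0.70 on the log2 scale with SOX10 (SE 0.0543, adjusted p = 1.78e-10). This change is one of ratio, since the means with overexpression were 291 CPM with guide 1 and 246 CPM with guide 2. Counts from the introduced SOX10 and from the cells' own gene cannot be told apart, and control cells with SOX10 held 452 ± 1.57 CPM.

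With SOX10 overexpressed the lines still differed at many genes, mostly by small amounts. Of 21060 genes tested, 2539 were called between the lines (12.1% of those tested), 1063 higher (5.05%) and 1476 lower (7.01%) with guide 2. All adjusted p-values of genes are from the quasi-likelihood F test of edgeR, two-sided, with Benjamini-Hochberg adjustment over all genes tested, and a gene was called at an adjusted p under 0.05. The median absolute log2 difference of the called genes was 0.231. With SOX10 the libraries of the lines did not overlap at 5843 of the 21060 genes, more than were called. A lack of overlap at a gene named below is thus common by itself. At least 2-fold differences numbered 46 higher and 94 lower, of which 5 and 47 reached 1 CPM in the higher line. Scaling by library size alone put the median gene at 0.028, in place of 0.00269, and turned the balance to 1561 higher and 1141 lower, so that 57.8% of calls were higher in place of 41.9%, and with no filter on low counts the share was 32.6%, from 864 higher and 1789 lower. Of the calls with the main scaling, 2204 were made in the same direction with library size alone. Without guide 2 replicate 3 with SOX10, 26 genes were at least 2-fold higher. Without SOX10, 1841 genes were called (8.74%), 559 higher (2.65%) and 1282 lower (6.09%) with guide 2. Library-size scaling gave 815 and 1116 there, so that 42.2% of calls were higher in place of 30.4%, and 336 were higher without guide 1 replicate 1.

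Many of the differences seen without SOX10 were called again with it, and most kept their sign. The 2 contrasts share no library, so genes called in one were read in the other. Of the 1282 genes lower with guide 2 without SOX10, 675 were lower with SOX10 (52.7%), 23 were higher and 584 were not called, and 1110 kept their sign (86.6%). Their median log2 difference was −0.274 without SOX10 and −0.161 with it, beside 0.00269 for all genes tested with SOX10. Of the 559 genes higher with guide 2 without SOX10, 274 were higher with SOX10 (49%) and 8 were lower, and 506 kept their sign (90.5%). Their median went from 0.187 to 0.144. Read from the other side, the 675 genes were 45.7% of those lower with SOX10, and the 274 genes were 25.8% of those higher with SOX10. A smaller median in the second contrast is also what selecting genes in the first one gives. The change of each difference was tested over all genes by the interaction, the difference with SOX10 minus the difference without. It was called at 528 genes (2.51%), moved up at 372 (1.77%) and down at 156 (0.741%). The share moved up was 70.5%, but 50.2% with no filter on low counts, from 330 up and 328 down, and leaving out guide 2 replicate 2 without SOX10 also gave 328 down. Among the 1282 genes lower without SOX10 it was called at 278, up at 238 and down at 40, whereas among the 1476 genes lower with SOX10 it was called at 204, up at 77 and down at 127. These splits use libraries that also chose the genes, and nothing is read from them. Across all genes the log2 differences with and without SOX10 had a Pearson correlation of 0.196, and 0.452 over the 3400 genes called in either contrast, as a description over genes, which are not independent.

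**Figure D1:**
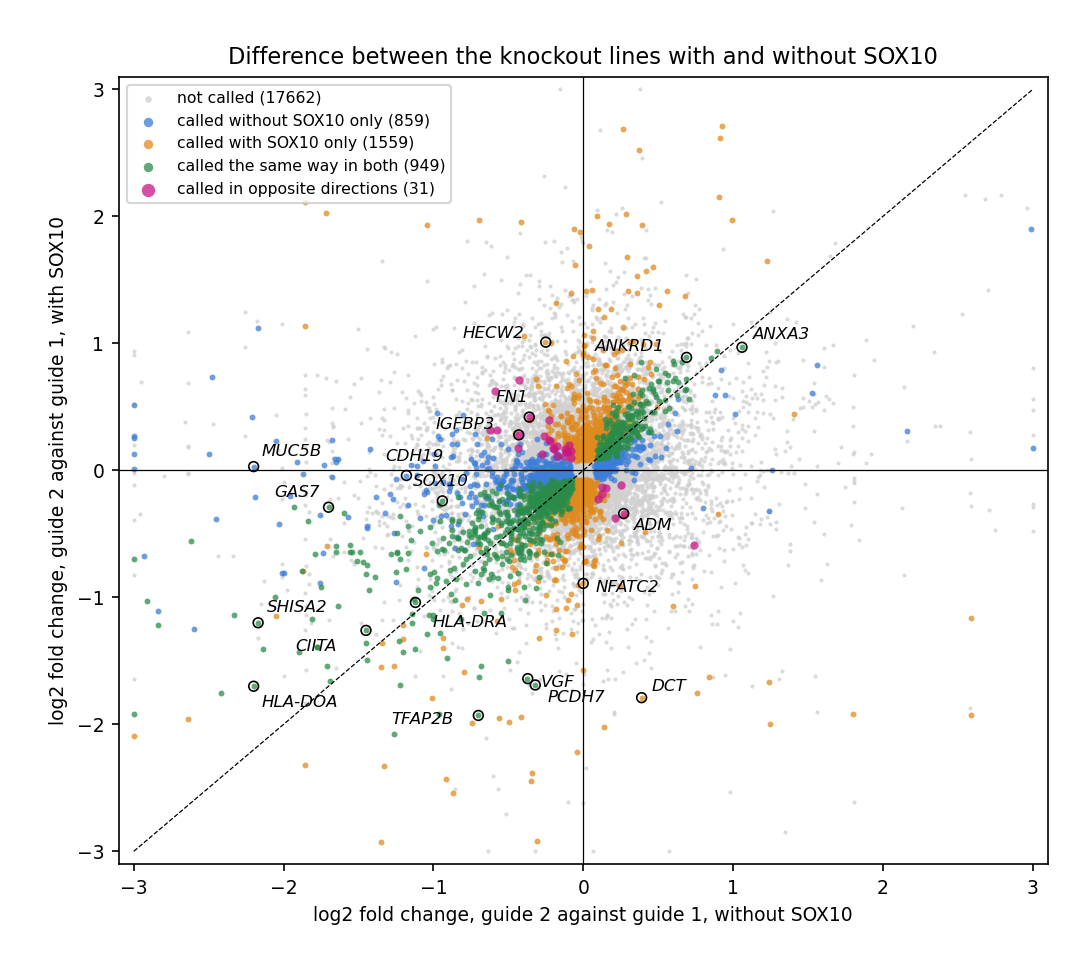
Log2 fold change of guide 2 against guide 1 without SOX10 (horizontal axis) and with SOX10 (vertical axis), 1 point per gene tested, values beyond 3 drawn at the border, with the line of equal difference dashed. Of the called genes, 949 lie in the same direction in both contrasts, such as HLA-DRA and ANXA3, 31 lie in opposite directions, such as FN1 and ADM, MUC5B and CDH19 lie near 0 on the vertical axis alone, and VGF and NFATC2 are far lower on the vertical than on the horizontal axis.

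The 12 largest falls with guide 2 in the presence of SOX10 took in a neural crest transcription factor, a pigment enzyme, a class II antigen gene and secreted or cell surface proteins. They were SCARA5, a ferritin receptor (log2 difference −2.08), TRIM48 (−2.00), TFAP2B, an AP-2 factor of the neural crest (−1.93), the sodium and calcium exchanger SLC24A2 (−1.92), DCT, a melanin synthesis enzyme (−1.79), HLA-DOA (−1.70), the extracellular superoxide dismutase SOD3 (−1.69), protocadherin PCDH7 (−1.69), the neurosecretory protein VGF (−1.64), the Golgi kinase FAM20C (−1.63), the hyaluronan binding protein CEMIP (−1.54) and the vitamin B12 carrier TCN1 (−1.54). Each was called, and the guide 1 and guide 2 libraries with SOX10 did not overlap, as the naming rule required. Of these 12 genes, 10 were also lower with guide 2 without SOX10, and the exceptions were TRIM48 and DCT. Both were near or under the floor in the lines without SOX10, so no fold was given there. The change with SOX10 was called at 6 of the 12, TFAP2B, DCT, PCDH7, VGF, FAM20C and CEMIP, and each moved down. TRIM48 stood at 30.4, 28.0 and 25.5 CPM with guide 1 and SOX10 and at 6.74, 7.59 and 6.67 CPM with guide 2 and SOX10, but its family holds near-identical copies between which reads may have been divided, and so does the HLA region. SLC24A2 had a count of 0 in all guide 2 libraries without SOX10 and no fold is given for it there.

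The largest rises with guide 2 were smaller than the largest falls, and several rested on low counts. The 12 largest were H2AC8 (log2 difference 1.53), FRMPD3 (1.06), the ubiquitin ligase HECW2 (1.01), ZNF385B (0.99), annexin ANXA3 (0.97), the microfibril protein MFAP5 (0.94), ICOS (0.93), the YAP target ANKRD1 (0.89), the protease inhibitors SERPINB2 (0.88) and PI3 (0.86), ZNF747 (0.88) and the proton-sensing receptor GPR65 (0.86). Of these, 5 were also higher with guide 2 without SOX10, namely ANXA3, MFAP5, ANKRD1, SERPINB2 and PI3. Others were near or under the floor without SOX10, so persistence cannot be read for them. Summed over the 3 libraries of guide 1 and of guide 2 without SOX10, ICOS had 0 and 0 counts and GPR65 2 and 3. FRMPD3 had 14 and 11 and ZNF385B 17 and 25. The change with SOX10 was called at 1 of the 12, HECW2. H2AC8, FRMPD3, ZNF385B and ICOS averaged 1.35, 1.19, 1.03 and 1.37 CPM with guide 2 and SOX10, and each lost its call when 1 of several libraries with SOX10 was left out, with adjusted p-values of up to 0.133, 0.0869, 0.148 and 0.106. H2AC8 is a histone gene with near-identical copies. HECW2 stood at 5.98, 7.23 and 6.12 CPM with guide 1 and SOX10 and at 12.0, 12.8 and 14.3 CPM with guide 2 and SOX10. It was not called without SOX10 (log2 difference −0.25, adjusted p = 0.143), and its difference moved up by 1.26 with SOX10 (SE 0.14, adjusted p = 4.04e-08).

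Antigen presentation genes stayed lower in the guide 2 line. Over all genes tested, 7.01% were lower and 5.05% higher with SOX10, shares to set beside the counts here and in the lists below. Without SOX10 the shares were 6.09% lower and 2.65% higher, and in the interaction 1.77% moved up and 0.741% down. Of 30 antigen presentation genes, 19 were lower with guide 2 with SOX10 and 1, the protease gene CTSS, was higher. Without SOX10 17 were lower, and all 17 were lower with SOX10 too. The median log2 difference of the list was −0.56 with SOX10 and −0.23 without. The median change per gene was only 0.01, however, and the interaction was called down at 4 of the 30 genes and up at 0. The class II genes are the alpha chains (HLA-DRA, HLA-DPA1) and beta chains (HLA-DRB1, HLA-DPB1) that carry peptide, the chaperone CD74, the modulator HLA-DOA and their coactivator CIITA. The class I genes HLA-B, HLA-C, HLA-E and HLA-F, with B2M, were among the 19 as well. As in any bulk library, fewer cells expressing a gene and less RNA per cell cannot be told apart.

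CIITA (ENSG00000179583; chromosome 16, 10866222 to 10943021) stood at 66.3, 66.7 and 67.5 CPM in the guide 1 libraries with SOX10 and at 27.1, 29.1 and 27.4 CPM in the guide 2 libraries with SOX10. The groups lay far apart, with a log2 difference of −1.26 (SE 0.0409, adjusted p = 2.58e-25). It was −1.45 without SOX10 (SE 0.0546), and the change between them, 0.18 (SE 0.069), was not called (adjusted p = 0.19). HLA-DRA (ENSG00000204287; chromosome 6, 32439842 to 32445046) stood at 353, 352 and 373 CPM with guide 1 and SOX10 and at 175, 178 and 172 CPM with guide 2 and SOX10. Its log2 difference was −1.04 with SOX10 (SE 0.0309) and −1.12 without (SE 0.0326), and the change of 0.08 was not called (adjusted p = 0.452). SOX10 raised HLA-DRA by 2.96-fold in the guide 1 line and by 3.13-fold in the guide 2 line. Against control cells with SOX10, at 780 ± 14.1 CPM (SD, n = 3), the log2 difference of HLA-DRA was −1.12 with guide 1 and −2.15 with guide 2, contrasts that share their control libraries. CD74 was lower by 0.77 with SOX10 and by 0.86 without on the log2 scale, and HLA-DPA1 by 0.82 and 0.68. The difference of HLA-B, HLA-C, HLA-E and HLA-DPB1 moved down with SOX10, and these 4 were singled out after their values were seen. HLA-B had a log2 difference of −0.71 with SOX10 and −0.39 without (adjusted p of the change 1.68e-05).

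Class II promoters carry an X box and a Y box that recruit RFX and NF-Y, on which CIITA assembles. Windows from 250 bases before to 50 after a gene's start were taken from RefSeq (GRCh38.p14) for 6 genes described here, of which 5 had a window. The X box core was searched as AGCAAC and the Y box core as ATTGG, on both strands, and neither overlaps the other. They were present in 12.8% and 34.6% of all 35116 windows, and both together in 4.87%. These windows show the letters at 2 class II genes that stayed lower with guide 2, HLA-DOA (chr6:33009542-33009841, minus strand) with both motifs and HLA-DPA1 (chr6:33073600-33073899, minus strand, the second of its windows) with the X box core alone. The other HLA-DPA1 window held neither motif, and the CD74 window held the Y box core without the X box core, so neither is printed. Sequences run 5′ to 3′ on the gene's strand, and capitals mark the motifs.
HLA-DOA: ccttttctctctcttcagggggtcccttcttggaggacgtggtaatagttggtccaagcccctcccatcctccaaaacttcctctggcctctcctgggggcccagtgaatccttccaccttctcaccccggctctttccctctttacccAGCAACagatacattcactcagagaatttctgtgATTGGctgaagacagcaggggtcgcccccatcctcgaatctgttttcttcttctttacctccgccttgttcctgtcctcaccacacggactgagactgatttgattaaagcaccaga
HLA-DPA1: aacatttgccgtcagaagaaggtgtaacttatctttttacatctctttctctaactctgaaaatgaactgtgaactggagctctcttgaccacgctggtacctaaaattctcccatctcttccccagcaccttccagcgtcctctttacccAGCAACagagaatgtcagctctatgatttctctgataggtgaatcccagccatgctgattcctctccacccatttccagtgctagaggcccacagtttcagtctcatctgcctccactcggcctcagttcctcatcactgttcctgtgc
A match is a description of letters, and no binding was measured.

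Outputs of the MAPK pathway, which oncogenic BRAF drives in this line, were likewise lower with guide 2 in both settings. Of 30 genes, 17 were lower with SOX10 and 3 were higher (EGR1, MYC and DUSP5). Without SOX10 17 were lower and 3 higher, and 15 were lower in both. The medians were −0.19 and −0.18. CCND1 (ENSG00000110092; chromosome 11, 69641087 to 69654474), which encodes cyclin D1, stood at 646, 679 and 664 CPM with guide 1 and SOX10 and at 506, 497 and 516 CPM with guide 2 and SOX10. The groups did not overlap (log2 difference −0.39, SE 0.0249, adjusted p = 8.77e-16), and without SOX10 the difference was −0.47. DUSP4, a phosphatase of MAP kinases, stood at 151, 153 and 145 CPM against 109, 103 and 101 CPM in the same libraries. Its log2 difference was −0.52 with SOX10 and −0.55 without, although SOX10 lowered DUSP4 in both lines, by 1.08 with guide 1 and 1.04 with guide 2 on the log2 scale. The feedback inhibitor SPRY2 was lower by 0.49 and 0.42.

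Targets of YAP and TEAD, which activate growth and cytoskeletal genes, were more often higher than lower with guide 2. Of 27 genes, 13 were higher and 2, AXL and AMOTL1, were lower with SOX10. Without SOX10 12 were higher and 5 lower, and 9 were higher in both. Library-size scaling gave 17 higher and 2 lower with SOX10, and leaving out guide 2 replicate 3 with SOX10 gave 10 and 2. ANKRD1 (ENSG00000148677; chromosome 10, 90912096 to 90921276), a nuclear ankyrin repeat protein and a standard YAP reporter, stood at 392, 416 and 441 CPM with guide 1 and SOX10 and at 741, 792 and 780 CPM with guide 2 and SOX10. Every guide 2 library lay above every guide 1 library, with a log2 difference of 0.89 (SE 0.0512, adjusted p = 8.36e-10) and of 0.69 without SOX10. The change of 0.20 was not called (adjusted p = 0.216), but it was called in 3 of 19 alternatives, with adjusted p-values from 0.00338 to 0.0497. SOX10 raised ANKRD1 by 3.86-fold in the guide 1 line and by 4.44-fold in the guide 2 line. The matricellular genes CCN1 and CCN2 were higher by 0.61 and 0.58 on the log2 scale with SOX10 and by 0.48 each without, and KRTAP2-3, a keratin associated protein gene with close relatives, by 0.86 and 0.66. The members that were lower without SOX10 and higher with it were IGFBP3, MYOF and NT5E.

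In the adhesion and matrix lists more genes were lower than higher with guide 2, and many were not called. Of 31 integrin and adhesion genes, 16 were lower with SOX10 and 14 of them also without it, and 3 (ITGA2, CDH13 and ALCAM) were higher. Of 41 extracellular matrix genes, 15 were lower with SOX10, 13 of them also without, 5 were higher (FN1, COL12A1, LUM, LAMA1 and COL13A1) and 21 were not called, with a median log2 difference of −0.08. TIMP3 (ENSG00000100234; chromosome 22, 32801701 to 32863043), an inhibitor of metalloproteinases, stood at 558, 577 and 560 CPM with guide 1 and SOX10 and at 296, 297 and 291 CPM with guide 2 and SOX10. Its log2 difference was −0.94 (SE 0.0239, adjusted p = 1.14e-28) and −1.10 without SOX10, and the change of 0.16 was called (adjusted p = 0.00439) but not when no filter on low counts was used (0.0683). SPARC was lower by 0.57 and 0.54 and CD44, the hyaluronan receptor, by 0.29 in each setting. ADAMTS6, a secreted metalloproteinase, went the other way, higher by 0.63 with SOX10 and 0.68 without. Of the TGF-beta response genes, TAGLN (0.70 and 0.63) was higher in both settings and PMEPA1 was lower (−0.58 and −0.69).

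**Figure D2:**
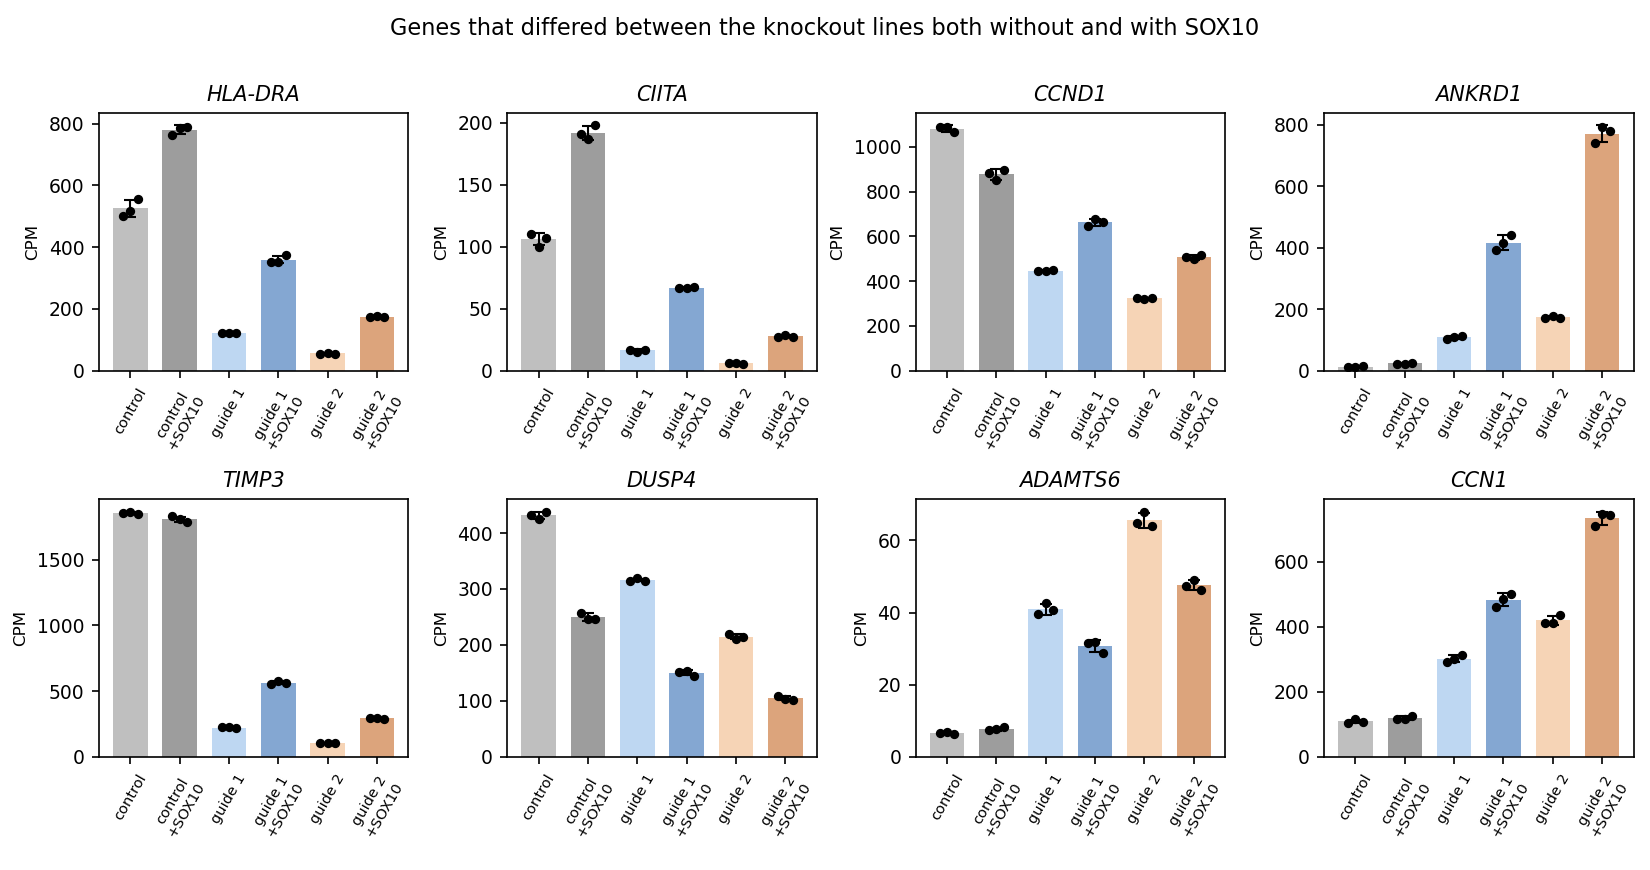
CPM of 8 genes that differed between the knockout lines without and with SOX10, by group, with points for the 3 libraries, bars for the mean and error bars for the SD. With SOX10, HLA-DRA, CIITA, CCND1, TIMP3 and DUSP4 are lower and ANKRD1, ADAMTS6 and CCN1 are higher with guide 2 than with guide 1, in every library.

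SOX10 lineage genes stayed lower with guide 2, and many differed less than they had without SOX10. Of 34 genes of the SOX10, Schwann cell and neural crest list, 18 were lower and 2, SOX9 and PMP2, were higher with SOX10. Without it 20 were lower, and 15 were lower in both. The median log2 difference was −0.28 with SOX10 and −0.65 without. The interaction was called up at 12 genes and down at 2, PMP22 and TFAP2B. ERBB3, the neuregulin receptor of glial cells, stood at 160, 160 and 153 CPM with guide 1 and SOX10 and at 112, 107 and 104 CPM with guide 2 and SOX10. Its log2 difference was −0.55 (SE 0.0338), against −1.15 without SOX10, a change of 0.60 (adjusted p = 3.87e-10). The receptor gene TNFRSF19 (−1.07 and −1.64), SHISA2 (−1.20 and −2.17) and S100B (−0.48 and −1.09) also remained lower in both settings, with a smaller difference with SOX10. The S100B change lost its call in 3 alternatives, with an adjusted p of up to 0.142.

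CDH19 and MUC5B lost their difference between the lines, and GAS7 most of it. CDH19 (ENSG00000071991; chromosome 18, 66501083 to 66604138), a cadherin of Schwann cell precursors, stood at 11.9, 13.2 and 13.0 CPM with guide 1 and at 5.29, 5.94 and 5.71 CPM with guide 2 without SOX10. With SOX10 it stood at 124, 121 and 120 CPM and at 120, 114 and 120 CPM. The groups overlapped with SOX10, the log2 difference was −0.04 (SE 0.0351, adjusted p = 0.522), and the change of 1.13 was called (SE 0.0651, adjusted p = 3.81e-16). Control cells with SOX10 held 125 ± 5.05 CPM (SD, n = 3). GAS7 (ENSG00000007237; chromosome 17, 9910609 to 10198551), a growth arrest gene of neurons, stood at 258, 265 and 261 CPM with guide 1 and SOX10 and at 207, 216 and 218 CPM with guide 2 and SOX10. It was lower with guide 2 by 0.29 on the log2 scale with SOX10 and by 1.70 without, and rose with SOX10 by 8.06-fold in the guide 1 line and by 21.4-fold in the guide 2 line. MUC5B, a gel-forming mucin, stood at 5.65, 6.42 and 5.71 CPM with guide 1 and SOX10 and at 5.66, 5.54 and 7.02 CPM with guide 2 and SOX10. These groups overlapped (log2 difference 0.03, adjusted p = 0.915), whereas without SOX10 the levels were 2.30 ± 0.0864 and 0.501 ± 0.031 CPM (SD, n = 3), and the change of 2.23 was called (SE 0.192, adjusted p = 8.81e-11).

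Other differences that narrowed belonged to varied genes. MAF, a basic leucine zipper factor, stood at 64.5, 64.6 and 60.9 CPM with guide 1 and SOX10 and at 41.3, 36.5 and 37.8 CPM with guide 2 and SOX10. It differed by −0.71 with SOX10 and −1.51 without on the log2 scale. The VEGF receptor FLT1 (−0.72 and −1.47), integrin ITGB8 (−0.57 and −1.01), the disaccharidase relative MGAM2 (−0.60 and −1.65), CD96 (−0.21 and −0.84), the protease inhibitor SERPINE2 (−0.28 and −0.63) and the WNT antagonist SFRP1 (−0.18 and −0.58) remained lower in both settings.

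A further set of differences was wider with SOX10, or appeared with it. VGF (ENSG00000128564; chromosome 7, 101162509 to 101165593) stood at 44.3, 42.2 and 44.2 CPM with guide 1 and at 36.0, 32.7 and 32.3 CPM with guide 2 without SOX10. With SOX10 it stood at 71.5, 71.5 and 68.6 CPM and at 22.9, 23.5 and 21.3 CPM. SOX10 thus raised VGF in the guide 1 line (log2 change 0.69, adjusted p = 2.5e-18) and lowered it in the guide 2 line (−0.58, adjusted p = 1.66e-14). The difference between the lines went from −0.37 to −1.64 (SE 0.0426), a change of −1.27 (SE 0.0595, adjusted p = 5.68e-19). NFATC2 (ENSG00000101096; chromosome 20, 51386957 to 51562831), a calcium-regulated transcription factor, stood at 43.7, 45.4 and 43.4 CPM with guide 1 and SOX10 and at 24.4, 22.6 and 24.6 CPM with guide 2 and SOX10. These groups did not overlap (log2 difference −0.89, SE 0.0383, adjusted p = 3.5e-21), whereas without SOX10 they did, at 19.2, 19.1 and 18.6 CPM with guide 1 and 18.3, 18.5 and 20.1 CPM with guide 2 (log2 difference 0.00, adjusted p = 0.999). PCDH7 stood at 6.29, 5.79 and 5.15 CPM with guide 1 and SOX10 and at 1.94, 1.67 and 1.71 CPM with guide 2 and SOX10. Its difference went from −0.32 without SOX10, a call lost without guide 1 replicate 3 (adjusted p = 0.0618), to −1.69 with it. TFAP2B went from −0.70 to −1.93, FAM20C from −0.70 to −1.63 and the glypican GPC6 from −0.25 to −0.73. The same direction held for CEMIP, from −0.68 to −1.54, but its change lost the call in 12 of 19 alternatives, with an adjusted p of up to 0.135. The widened differences in the other direction included the immediate early factor EGR1 (−0.02 without and 0.47 with SOX10), the urea transporter SLC14A1 (−0.11 and 0.45) and keratin KRT15 (−0.06 and 0.53). In edgeR all 3 were called with SOX10 and not without it, and the change of each was called. SLC14A1 was also called without SOX10, as lower, by DESeq2 and with a mean of at least 1 CPM (adjusted p from 0.0337 to 0.0428).

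Most pigment genes were not called, and DCT and GPM6B were among those lower with guide 2. Of 20 pigmentation genes, 5 were lower with SOX10 (DCT, GPNMB, GPM6B, MITF and ACP5), 1, RAB27A, was higher and 14 were not called. GPM6B, a membrane glycoprotein, stood at 2.92, 2.42 and 2.28 CPM with guide 1 and SOX10 and at 1.55, 1.74 and 1.18 CPM with guide 2 and SOX10, a log2 difference of −0.76 (SE 0.149, adjusted p = 0.000237). DCT (ENSG00000080166; chromosome 13, 94436808 to 94479682) stood at 23.8, 23.7 and 20.8 CPM with guide 1 and SOX10 and at 6.77, 6.51 and 6.49 CPM with guide 2 and SOX10. The groups lay far apart (log2 difference −1.79, SE 0.0583, adjusted p = 2.6e-25), and control cells with SOX10 held 156 ± 2.74 CPM (SD, n = 3). Without SOX10 the 3 libraries of a line held 13 DCT counts in all with guide 1 and 18 with guide 2. MITF (ENSG00000187098; chromosome 3, 69739435 to 69968337) stood at 66.9, 64.9 and 60.7 CPM with guide 1 and SOX10 and at 59.0, 54.5 and 55.5 CPM with guide 2 and SOX10. It was lower with guide 2 by 0.19 on the log2 scale with SOX10 (adjusted p = 0.000268) and higher by 0.13 without (adjusted p = 0.016), a called change of −0.31. The call without SOX10 was lost when 1 of 3 libraries was left out, with an adjusted p of up to 0.146.

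The start regions of DCT and VGF are shown because both genes were among the 12 largest falls and have known regulators whose motifs could be searched. MITF binds the M box, whose core CATGTG was searched on both strands (CACATG on the other) and lies in 11.1% of all windows. CREB binds the cAMP response element TGACGTCA, which reads the same on both strands and lies in 1.85% of windows. The DCT window (chr13:94479633-94479932, minus strand, the second of its windows, GRCh38.p14) holds the M box core on each strand, the other DCT window holds none, and the VGF window (chr7:101165520-101165819, minus strand) holds 1 response element, all in capitals.
DCT: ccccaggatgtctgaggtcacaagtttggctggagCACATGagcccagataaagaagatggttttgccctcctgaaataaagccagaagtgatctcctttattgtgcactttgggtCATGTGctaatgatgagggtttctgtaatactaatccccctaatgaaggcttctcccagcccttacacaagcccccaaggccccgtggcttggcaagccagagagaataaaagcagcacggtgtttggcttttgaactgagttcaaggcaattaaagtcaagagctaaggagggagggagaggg
VGF: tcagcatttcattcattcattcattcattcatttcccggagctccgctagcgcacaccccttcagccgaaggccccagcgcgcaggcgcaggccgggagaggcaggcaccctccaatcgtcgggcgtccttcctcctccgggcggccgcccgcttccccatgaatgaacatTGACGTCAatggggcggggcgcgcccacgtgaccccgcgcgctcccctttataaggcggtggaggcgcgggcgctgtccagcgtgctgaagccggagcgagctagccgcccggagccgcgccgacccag

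Most genes of hypoxia and glycolysis were lower with guide 2 with SOX10, and several of these differences had changed. Of 30 genes, 19 were lower and 1, SLC2A3, was higher with SOX10, with a median of −0.19. Without SOX10 8 were lower and 3 higher, with a median of −0.08, and 8 were lower in both. The interaction was called down at 6 genes: LDHA, BNIP3, HK2, ADM, PGAM1 and PGK1. LDHA, lactate dehydrogenase A, stood at 1337, 1346 and 1376 CPM with guide 1 and SOX10 and at 1102, 1089 and 1119 CPM with guide 2 and SOX10. Its log2 difference was −0.29 (SE 0.0216) with SOX10 and −0.09 without. The mitophagy receptor BNIP3 differed by −0.32 with SOX10 and 0.05 without.

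Among the SAGA subunits, the acetyltransferase KAT2B was lower with guide 2. Of 24 subunit genes, 3 were lower (KAT2B, USP22 and ATXN7L3) and 1, ATXN7L1, was higher with guide 2 with SOX10, beside 7.01% lower and 5.05% higher among all genes. Without SOX10, 2 were higher (TAF5L and TADA2B) and 2 lower (KAT2B and SF3B3). KAT2B (ENSG00000114166; chromosome 3, 20040023 to 20154404) stood at 105, 99.5 and 93.5 CPM with guide 1 and SOX10 and at 69.2, 63.8 and 68.8 CPM with guide 2 and SOX10. The groups did not overlap (log2 difference −0.56, SE 0.0367, adjusted p = 1.7e-15), and the difference was −0.15 without SOX10, a change of −0.41 (adjusted p = 1.78e-06). SOX10 raised KAT2B by 2.72-fold in the guide 1 line and by 2.05-fold in the guide 2 line. USP22, the deubiquitinase, differed by −0.14. The calls of ATXN7L3 and ATXN7L1 were each lost when 1 of 2 libraries with SOX10 was left out, with adjusted p-values of up to 0.0927 and 0.0694, and that of ATXN7L3 also with library-size scaling (0.0815).

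In 31 genes the lines were called in opposite directions with and without SOX10, 23 of them lower with guide 2 without SOX10 and higher with it. FN1 (ENSG00000115414; chromosome 2, 215360440 to 215436172), fibronectin, stood at 224, 224 and 210 CPM with guide 1 and at 177, 169 and 167 CPM with guide 2 without SOX10. With SOX10 it stood at 221, 230 and 232 CPM and at 300, 294 and 318 CPM. The log2 difference went from −0.36 to 0.42, a change of 0.78 (SE 0.0452, adjusted p = 5.92e-16), and SOX10 raised FN1 by 1.78-fold in the guide 2 line while the guide 1 line differed by 0.05 (adjusted p = 0.191). IGFBP3 (ENSG00000146674; chromosome 7, 45912245 to 45921874), a binding protein of insulin-like growth factors, stood at 168, 176 and 176 CPM with guide 1 and SOX10 and at 209, 205 and 215 CPM with guide 2 and SOX10. Its log2 difference was 0.28 with SOX10 and −0.43 without. The membrane repair protein MYOF (0.19 and −0.17), the hormone gene PTHLH (0.32 and −0.58) and the calcium binding protein CALB2 (0.40 and −0.23) followed the same course, and adrenomedullin, ADM, the reverse (−0.34 and 0.27). The PTHLH call with SOX10 was lost without guide 1 replicate 1 with SOX10 (adjusted p = 0.055). The number of such genes was 13 without guide 1 replicate 2 and 19 without guide 1 replicate 2 with SOX10.

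**Figure D3:**
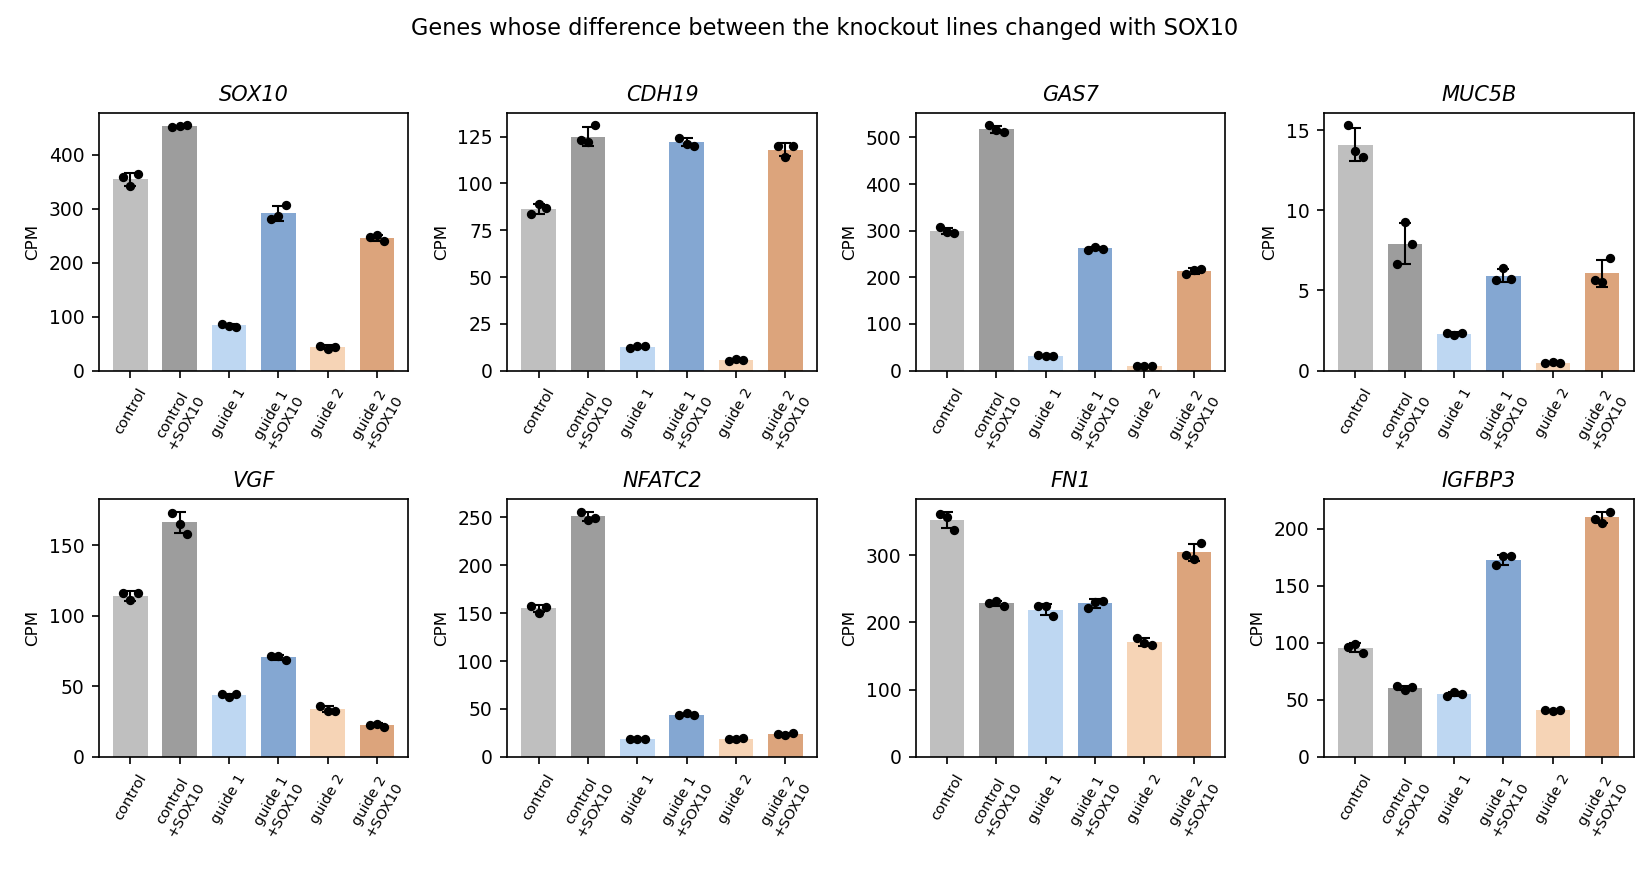
CPM of 8 genes whose difference between the knockout lines changed with SOX10, by group, with points for the 3 libraries, bars for the mean and error bars for the SD. With SOX10 the guide lines are level for CDH19 and MUC5B, guide 2 is lower for SOX10, GAS7, VGF and NFATC2, and guide 2 is higher for FN1 and IGFBP3, which were lower with guide 2 without SOX10.

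Some cell cycle genes were lower with guide 2, by small amounts. Of 30 genes of G2 and M phase, 17 were lower with SOX10 and 8 without, all 8 of them lower in both, with medians of −0.09 and −0.05. Library-size scaling left 12 lower with SOX10. PLK1, a mitotic kinase, differed by −0.27 with SOX10 and −0.16 without, and CDC20, an activator of the anaphase complex, by −0.23 and −0.05. Of 33 S phase genes, 7 were lower with SOX10 and 26 were not called, and with library-size scaling 4 were lower. The 7 included the histone mRNA binding protein SLBP (−0.16) and the helicase subunit MCM3 (−0.15), and without SOX10 only MCM3 of the list was lower. That MCM3 call was lost when guide 2 replicate 2 without SOX10 was left out (adjusted p = 0.0718). The interaction was called by edgeR at 1 of the G2 and M phase genes, CDC20, and at 0 of the S phase genes. That CDC20 call was lost without guide 1 replicate 3 with SOX10 (adjusted p = 0.0543). Of the S phase genes, 3 had an unadjusted interaction p under 0.05 and DESeq2 called 0.

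Receptor tyrosine kinases and genes of the mesenchymal, AXL-high state were called in both directions with SOX10. Of 34 kinase genes, 8 were higher and 4 lower with guide 2 with SOX10, where 2 were higher and 8 lower without it. The interaction was called up at 6 of them and down at 0, beside 1.77% up and 0.741% down over all genes tested. MET, the receptor for hepatocyte growth factor, stood at 223, 233 and 218 CPM with guide 1 and SOX10 and at 255, 248 and 254 CPM with guide 2 and SOX10. It was higher by 0.17 with SOX10 and differed by −0.07 without (adjusted p = 0.118), a called change of 0.23. The lower kinases were ERBB3, EPHA3 (−0.52), FLT1 and AXL. Of 33 genes of the AXL-high state, 7 were higher and 10 lower with SOX10. Without it 4 were higher and 15 lower, beside 2.65% and 6.09% over all genes tested. The interaction was called up at 6 and down at 2, and FN1, NT5E and NRG1 were called in opposite directions. With SOX10 the lower ones included the matrix protein TNC (−0.64), SPARC and vimentin, VIM (−0.37), and the higher ones FN1, ANKRD1 and CCN2.

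The other lists were split between directions or held few calls, beside 5.05% higher and 7.01% lower over all genes tested with SOX10. Of 45 interferon-stimulated genes, 5 were higher (GBP1, SAMD9, HERC5, SAMD9L and PARP14) and 2 lower (GBP2 and IFITM3) with SOX10, with a median of 0.09. The interaction was called by edgeR at 0 of them, 7 had an unadjusted p under 0.05, and DESeq2 called 0. Of 23 AP-1 and immediate early genes, 5 were higher (EGR1, KLF2, ATF3, NR4A3 and BATF3) and 4 lower (MAF, FOSL1, IER3 and EGR3). Of 28 TGF-beta response genes, 4 were higher and 7 lower. Of 27 NF-kB and cytokine genes, 3 were higher (IL24, IL11 and BIRC3) and 2 lower (CXCL1 and TRAF1). Of 26 p53 targets, 4 were higher (POLH, GDF15, BBC3 and TIGAR) and 3 lower (CDKN1A, SESN2 and TP53INP1). Of these single genes, the calls of GDF15 and POLH were each lost when 1 of 2 libraries with SOX10 was left out, with adjusted p-values of up to 0.0886 and 0.114. Of the genes named in these lists and counted at 5 or fewer, those that the naming rule did not select were singled out after their values were seen.

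**Figure D4:**
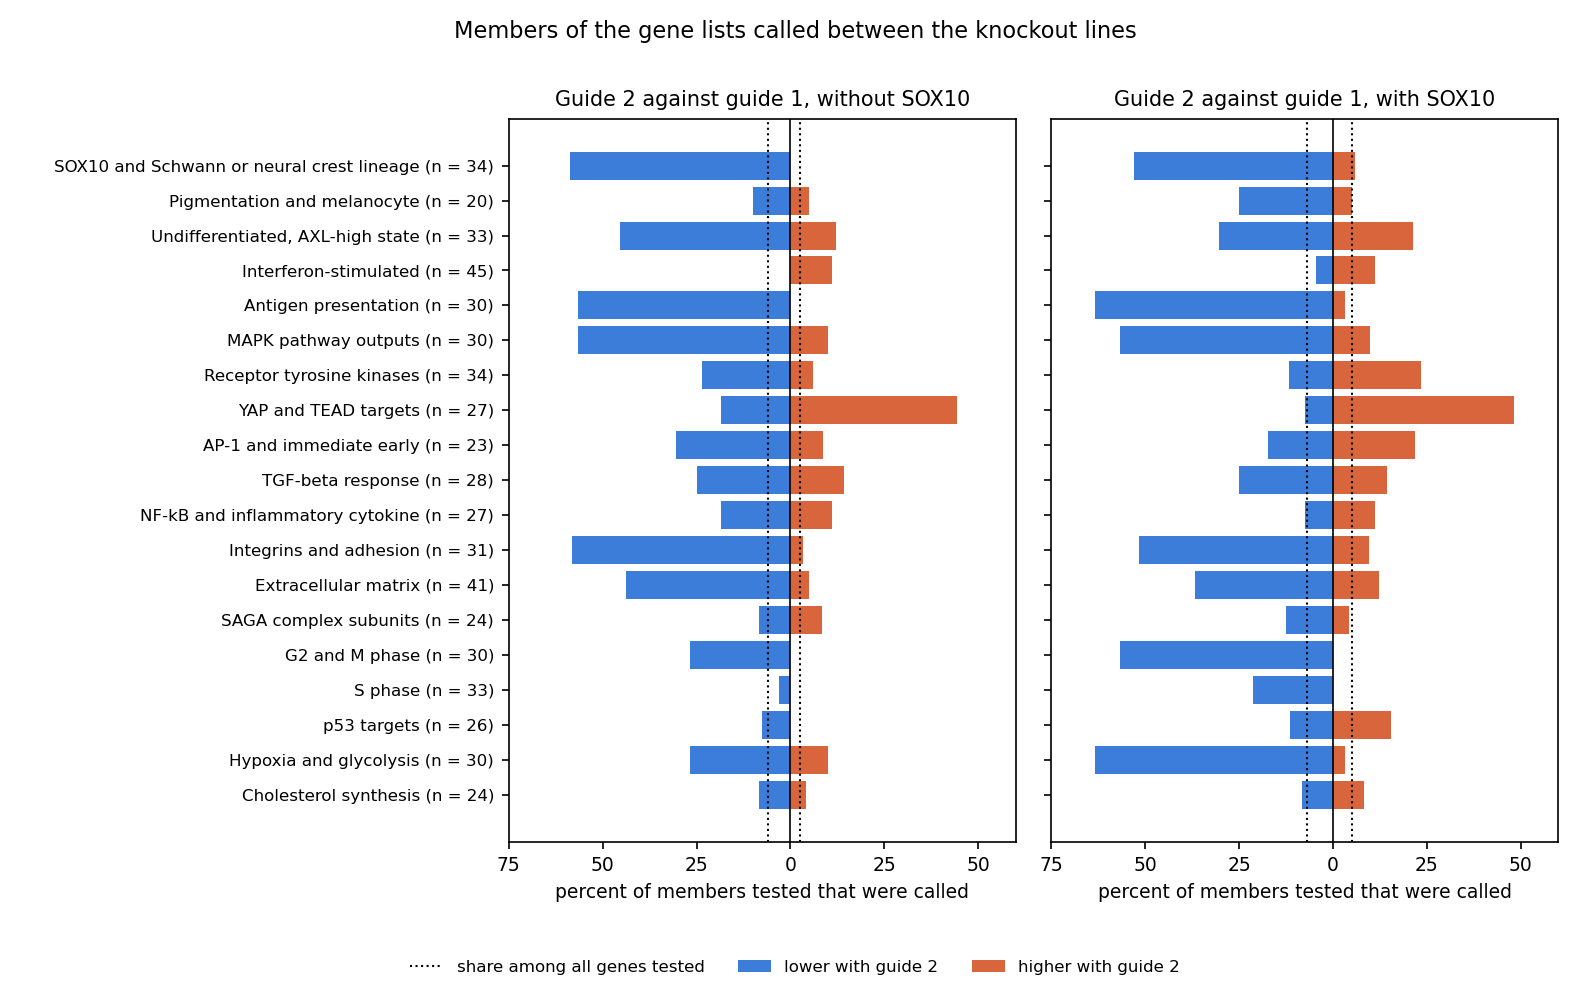
Percent of the tested members of each gene list called lower (left of 0) or higher (right of 0) with guide 2, without SOX10 in the left panel and with SOX10 in the right panel, with dotted lines at the share among all genes tested. Lists that extend further left than right in both panels include SOX10 and Schwann, antigen presentation, MAPK, adhesion, matrix, AXL-high, and G2 and M phase. The YAP and TEAD list extends further right in both, and the hypoxia list reaches 19 of 30 members to the left with SOX10.

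Markers of other cell types were looked at beside these results. Over all genes tested with SOX10, 5.05% were higher and 7.01% lower with guide 2. Of 11 keratinocyte or epithelial markers, 4 were higher with guide 2 with SOX10 (KRT8, KRT15, SFN and DSP), and the summed level of the list was 380 to 408 CPM with guide 1 and 440 to 451 CPM with guide 2. Members that other cells also express were well detected, such as KRT18 (188 and 195 CPM), DSP (77.8 and 91.0 CPM), KRT8 (53.6 and 72.1 CPM) and KRT10 (38.7 and 41.1 CPM). KRT14 stood at 4.30 and 4.60 CPM, KRT5 at 0.302 and 0.394 CPM and EPCAM at 0.0876 and 0.156 CPM, KRT1 was at 0 in both lines with SOX10, and CDH1 and TP63 were under the floor. Of 11 melanoma markers, 5 were lower with guide 2 (DCT, SOX10, S100B, MITF and CSPG4), and their summed level was 978 to 1044 CPM with guide 1 and 869 to 901 CPM with guide 2, both with SOX10. Of 11 fibroblast markers, 2 were higher (MFAP5 and LUM), with sums of 57.3 to 58.1 CPM and 64.7 to 68.1 CPM. LUM held most of the sum (37.3 and 43.3 CPM), ACTA2 stood at 5.24 and 5.93 CPM, PDGFRB at 3.85 and 4.22 CPM and COL1A1 at 3.07 and 3.18 CPM, while COL3A1 stood at 0.0389 and 0.0395 CPM and DPT at 0. Of 8 leukocyte markers tested, edgeR called 0 with SOX10, 1 had an unadjusted p under 0.05 and DESeq2 called 0. Their list summed to 19.6 to 20.8 CPM and 21.4 to 23.3 CPM, with LYZ alone at 18.8 and 20.8 CPM, and CD3E, MS4A1 and TYROBP were at 0 in both lines with SOX10. The part of other cells in the differences above was not tested.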

How the data were processed

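RNA sequencing of 18 libraries of A375 cells, 6 groups of 3 by the sample titles, was analysed from 1 table of raw gene counts that the authors deposited. Per the labels' protocols, RNA from cultured cells went into a library preparation by KAPA Stranded mRNA-Seq. Per the submitters' processing notes, HISAT2, HTSeq and the hg38 build were used; for their versions, settings and strand option the entry is: not given in the sources used here. Gene positions and types came from GENCODE 29, which matched 58676 of 58721 identifiers. Gene symbols came from a separate list of gene names, which gave one for 58207 identifiers, and otherwise from GENCODE 29.

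The counts were fitted with edgeR 4.0.16 in R 4.3.3 (limma 3.58.1): filterByExpr by group, TMM scaling, 1 mean per group over all 18 libraries, and robust quasi-likelihood F tests with Benjamini-Hochberg adjustment over the 21060 genes tested. There were 12 residual degrees of freedom, and the common biological coefficient of variation was 4.02%. CPM used TMM library sizes. Depth was 58573910 to 79874237 counts per library. The contrasts were guide 2 minus guide 1 with SOX10, the same without SOX10, and their difference (interaction). The procedure was tested on simulated data.

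The genes named were TADA2B and SOX10; the 12 largest called protein-coding rises and falls with a mean of at least 1 CPM in the higher line and no overlap between libraries; the 4 members of each of 25 lists with the lowest p; 14 genes that an earlier account of the contrast without SOX10 names; the 8 protein-coding genes with the lowest interaction p in each direction of change; and up to 6 called in opposite directions. The members and lists were chosen with earlier results of these data known. Alternatives were RLE scaling, library-size scaling, DESeq2 1.42.0, no filter, a mean of at least 1 CPM, the 12 knockout libraries only, a replicate block, and leaving out each knockout library. Promoter windows came from RefSeq (GRCh38.p14), and no coordinate was converted between builds. Some genes are not reported here.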

Additional observations from a re-analysis of the deposited data

Results flagged for a closer look

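The difference between the guide lines differed with and without SOX10, by a test of the interaction in edgeR, at 372 genes where it moved up and at 156 where it moved down. Moved up means that guide 2 stood higher against guide 1 with SOX10 than without. The log2 values that follow are that change, and each named gene passed the adjusted threshold.

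Among lineage and SOX10-raised genes the difference moved up by 0.70 for SOX10, 0.60 for ERBB3, 0.56 for TNFRSF19, 0.96 for SHISA2, 1.41 for GAS7, 1.13 for CDH19, 0.61 for S100B, 0.79 for MAF, 0.75 for FLT1, 1.05 for MGAM2 and 2.23 for MUC5B. It moved up by 0.63 for CD96, 0.36 for SERPINE2, 0.41 for SFRP1, 0.44 for ITGB8 and 0.16 for TIMP3 among surface and secreted proteins. For LYZ, listed among the leukocyte markers, the change was 0.81, from −0.66 without SOX10 to 0.14 with it, and the latter was not called (adjusted p = 0.161).

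Genes that were higher with guide 2 with SOX10 and had a called change were HECW2 (1.26), FN1 (0.78), IGFBP3 (0.71), MYOF (0.36), PTHLH (0.89), CALB2 (0.63), SLC14A1 (0.56), EGR1 (0.49), KRT15 (0.59), DSP (0.25), MET (0.23) and IL24 (0.19). The IL24 change lost its call in 10 of 19 alternatives, with an adjusted p of up to 0.117, and the DSP change without guide 1 replicate 3 (0.0529).

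The difference moved down, to lower levels with guide 2 with SOX10, for DCT (−2.18), PCDH7 (−1.37), VGF (−1.27), TFAP2B (−1.23), FAM20C (−0.93), NFATC2 (−0.89), CEMIP (−0.86), ADM (−0.61), GPC6 (−0.48), KAT2B (−0.41), BNIP3 (−0.37), MITF (−0.31), PHLDA1 (−0.29), TNC (−0.21), LDHA (−0.20) and CDC20 (−0.18). The DCT value rests on 13 and 18 counts in the lines without SOX10 and lost its call without guide 2 replicate 2 (adjusted p = 0.0975). The CDC20 change lost its call without guide 1 replicate 3 with SOX10 (0.0543).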

How the results depend on the processing

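Of the 133 genes named by rule, 120 were called with SOX10 and 107 of these in all 19 alternatives, 88 and 78 without SOX10, and 47 and 39 in the interaction; no sign reversed in a called value. With no filter, 328 interaction genes moved down in place of 156. With a mean of at least 1 CPM, 4 genes were at least 2-fold higher and 51 lower with SOX10, in place of 46 and 94, since fewer low genes were tested. Leaving out 1 library gave, with SOX10, 721 to 1256 higher and 1167 to 1742 lower genes, and 26 to 64 higher and 78 to 103 lower by at least 2-fold, all 4 lowest without guide 2 replicate 3 with SOX10. Without SOX10 it gave 336 to 583 higher, lowest without guide 1 replicate 1, and 1004 to 1284 lower. In the interaction it gave 257 to 482 up and 105 to 328 down, 328 without guide 2 replicate 2. Genes lower in both numbered 587 to 682, higher in both 202 to 265, and opposite 13 to 46, 13 without guide 1 replicate 2 and 19 without guide 1 replicate 2 with SOX10. The causes were not tested. DESeq2 called 1072 higher and 1642 lower with SOX10, and 408 up and 234 down in the interaction, where edgeR called 156 down. Samples share only a replicate number: correlations of same-numbered deviations were −0.0028, 0.0132 and 1.82e-05 with SOX10 and 0.0387, 0.0108 and 0.0244 without. With the replicate block, 1185 genes were higher and 1598 lower with SOX10, 652 and 1384 without, 410 moved up and 206 down, and 727, 309 and 42 were lower in both, higher in both and opposite. Depth limits genes near 0.0359 to 0.0493 CPM, and 3 libraries a group from 1 line per guide limit the rest.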

Other observations

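Zinc finger genes with the ZNF prefix, a set chosen after the values were seen, were more often higher than lower with guide 2 with SOX10. ZNF proteins are a large family of DNA-binding factors, many of them repressors encoded in clusters on chromosome 19. Of 562 tested, 73 were higher and 11 lower, with a median log2 difference of 0.061, beside 5.05% higher, 7.01% lower and a median of 0.00269 over all genes. Leaving out guide 2 replicate 3, 2 or 1 with SOX10 gave 39, 42 and 70 higher, so the count leaned on replicates 3 and 2. The change between the settings was called at 6 up and 1 down. Without SOX10, 12 were higher and 10 lower, with a median of 0.0243. The 278 on chromosome 19 had 48 higher and 2 lower with SOX10 (median 0.0971), the 284 elsewhere 25 and 9 (0.0175), and the 1077 other genes of chromosome 19 had 61 and 46 (0.0135). On chromosome 19, library-size scaling gave 70 higher and 1 lower ZNF genes. Leaving out guide 2 replicate 3, 2 or 1 with SOX10 gave 22, 27 and 45 higher there, with medians of 0.0914, 0.104 and 0.092. These genes share sequence, so reads may have been divided between them.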
